A study of Drosophila melanogaster with 12 samples.

Results

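The genes described here are S-Lap8, twe, Pglym87, ocn and Mst77F, 5 genes known for their work in the testis, as measured in heads of male Drosophila melanogaster. They were picked by gene symbol from 6793 genes that the spotted cDNA arrays name with 1 symbol, and all 5 were found. The 5 genes and the gene lists used below were chosen with earlier results of these data known. The study compared heads of unmated wild-type Oregon-R males withdrawn from pentylenetetrazol (PTZ), a convulsant that blocks GABA-A receptors, with heads of untreated males. Withdrawn males had 8 mg/ml PTZ in their food for 7 days and then normal food for 1 day (day 8), 3 days (day 10) or 7 days (day 14). Untreated males had normal food throughout and were collected on the same day. Both groups were of 1 strain, were kept 30 to a vial, and had an age of 4 to 5 days in the labels and of 3 to 4 days at the start in the series text. Each of 4 two-colour arrays a day set a pool of withdrawn heads against a pool of untreated heads, so each value is a ratio of pools and not of single flies.

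In the fly testis, germ cells divide, pass through meiosis and then reshape into sperm, packing their chromatin with sperm-specific proteins and fusing their mitochondria along the tail. Many proteins of this programme come from gene copies that are used almost only in the male germ line, beside a sister copy that other tissues use. Heads hold no germ line. Among the 5 genes, twe encodes the Cdc25-type phosphatase that starts meiosis, Mst77F a linker-histone-like protein of sperm chromatin, S-Lap8 a leucyl aminopeptidase of the sperm family, Pglym87 a second phosphoglycerate mutase, and ocn (ocnus) an abundant testis protein of the janus family.

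Signed values are log2 ratios read as withdrawn over untreated, relative to the median of each array, which was set to 0. That reading follows the channel labels, which put withdrawn heads in Cy5 on all arrays. It is not settled, because the series text has the dyes swapped on 2 of 4 arrays a day, and the protocols of 3 day 10 arrays (replicates 1, 2 and 3) put withdrawn heads in Cy3. The 4 day 8 columns repeat each other exactly at every spot they share, so day 8 counts as 1 sample and allows no spread of its own. Testing a gene on a given day took values in at least 3 of 4 columns, and used two-sided moderated tests of the limma package in 1 fit over 9 samples. Calls needed an adjusted p under 0.05 over all genes tested. The arrays held values for 2316 to 7454 spots at day 8, 15057 to 18354 at day 10 and 4310 to 19807 at day 14. Across genes, day 10 replicates 1 and 2 correlated at r = 0.501 and replicates 3 and 4 at r = 0.554, while r between those pairs ran from -0.071 to 0.029. The fit takes the arrays of a day as independent, so its day 10 p-values, SE and intervals do not account for these pairs. A ratio gives no level, and in pooled heads fewer cells of a type and less RNA per cell cannot be told apart.

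The 5 genes sit on 12 spots, in pairs printed from 1 clone. Mst77F has 2 such pairs and each other gene has 1. Of the values these spots could have given, 79.2% were deposited at day 10, 58.3% at day 14 and 20.8% in the day 8 columns. Over all named genes the shares were 70.8%, 52.4% and 13.6%, so the 5 genes were measured at least as often as genes at large. Per the series text a deposited value means that the spot passed filters that include a signal at least 3 times the noise. A wider testis list of 119 genes, 52 of them on the arrays, was measured less often, with 55.7% of values at day 10, 41.7% at day 14 and 4.4% at day 8. Photoreceptor genes, markers of the eye, had 78.6%, 66.1% and 44.6%, and neuron genes 70.8%, 59.5% and 13.1%. Accessory gland genes, from another part of the male reproductive tract, had 54.2% and 37.5% at days 10 and 14 on 12 spots, and no value at day 8. The shares follow the filters as well as the RNA, and intensities were not analysed here, so they are not levels of expression.

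**Figure D1:**
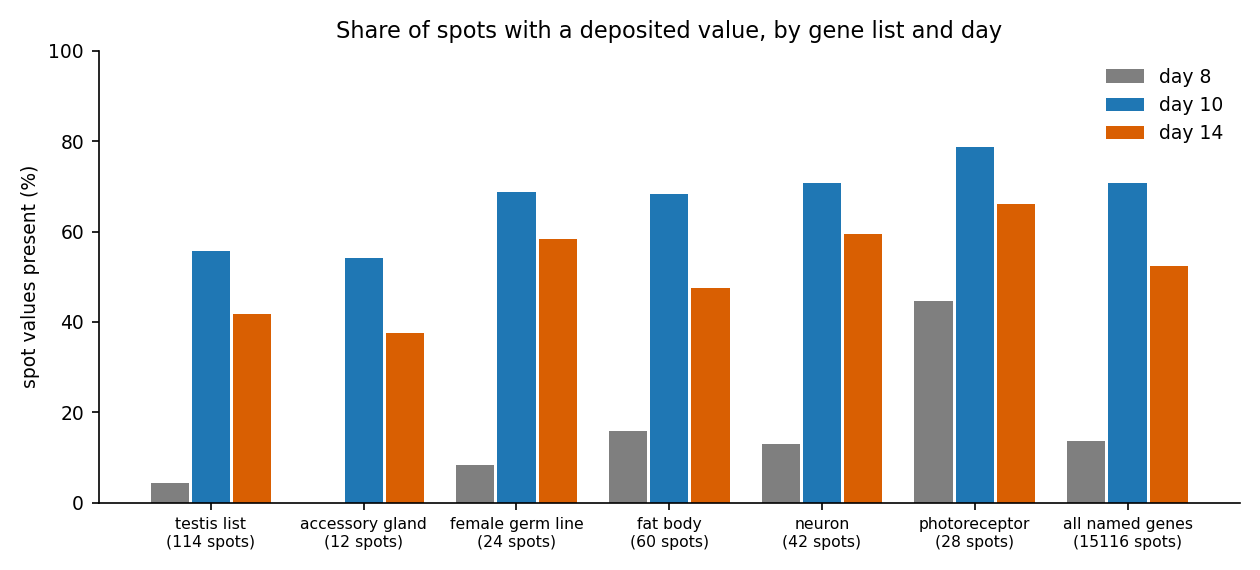
Share of spot values present (y axis, percent of all spot and column pairs) for 6 gene lists and all named genes (x axis, with the number of spots), at days 8, 10 and 14 (bars). Testis list genes stand at 4.4%, 55.7% and 41.7%, below all named genes at 13.6%, 70.8% and 52.4%.

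The meiotic phosphatase gene twe (twine) had the narrowest spread of the 5 at day 10. Its log2 ratio was 0.58 in replicate 1, 0.78 in replicate 2 and 0.51 in replicate 4, and replicate 3 held no value. All 3 arrays lay above 0, and the mean was 0.62 ± 0.14 (SD, n = 3), a 1.54-fold ratio with a 95% interval of 0.32 to 0.93 on the log2 scale. In limma the unadjusted p was 0.00148 and the adjusted p = 0.139, which misses the threshold. This was the 47th smallest p of 4661 genes. At day 8, twe stood at 0.27 in the only column that held it. At day 14 it stood at -0.40 in replicate 1 and 0.02 in replicate 3, under the 3 arrays asked for. The day 14 values of twe lay below all its day 10 values, and how often that holds for genes at large was not counted. With 2 of 4 columns asked for, the day 14 mean was -0.19 (SE 0.17, limma adjusted p = 0.843), and day 14 minus day 10 was -0.81 (SE 0.21, 95% interval -1.31 to -0.32, limma adjusted p = 0.395), which was not called.

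Mst77F, whose protein takes part in packing the sperm nucleus beside the protamines, ran from -0.05 to 0.42 across days 10 and 14. At day 10 it had 0.24 in replicate 1, 0.07 in replicate 2 and 0.42 in replicate 3. All 3 were above 0, with a mean of 0.24 ± 0.17 (SD, n = 3, limma adjusted p = 0.422). At day 14 it had -0.03, 0.21 and -0.05 in replicates 1, 2 and 3, a mean of 0.04 ± 0.15 (SD, n = 3, limma adjusted p = 0.978). The days overlapped, and day 14 minus day 10 was -0.20 (SE 0.17, limma adjusted p = 0.784). Without day 14 replicate 2 the day 14 mean was -0.04. The day 8 sample read 0.43.

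The 2 clones of Mst77F differed at day 14. In day 14 replicate 1 the first clone stood at 0.45 and the second at -0.51, and in replicate 3 they stood at 0.05 and -0.15. At day 10 the clones were closer, at 0.26 and 0.23 in replicate 1 and at 0.04 and 0.10 in replicate 2. Day 10 replicate 3 and the day 8 columns rest on the second clone alone, and day 14 replicate 2 on the first alone. Mst77F has near-identical copies on the Y chromosome, the Mst77Y genes, which a cDNA spot may not tell apart from it.

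S-Lap8 had the highest mean of the 5 at day 10. Sperm leucyl aminopeptidases are among the most abundant proteins of fly sperm. The log2 ratio was 0.30 in replicate 2, 1.61 in replicate 3 and 1.40 in replicate 4, and replicate 1 held no value. All 3 arrays lay above 0, but replicates 3 and 4 stood far above replicate 2, where the 2 spots of the clone themselves read 0.63 and -0.04. On their own arrays the 3 values were higher than 89.2%, 99.5% and 98.7% of genes. The mean was 1.1 ± 0.70 (SD, n = 3), a 2.14-fold ratio, and ranked 7th of 4661 genes by size. Its 95% interval on the log2 scale was 0.52 to 1.68. That interval rests on the moderated SE of 0.25 and not on the SD of these 3 arrays.

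The unadjusted p of S-Lap8 at day 10 was 0.0028 in limma and the adjusted p = 0.166. Without replicate 2 the mean was 1.5 and S-Lap8 was called in limma (adjusted p = 0.0403). That setting called 14 of 4661 genes. S-Lap8 then rested on replicates 3 and 4 alone, under the 3 arrays asked for. Over all alternatives its adjusted p in limma ran from 0.0403 to 1. At day 14 it was measured on 1 array, replicate 1, at 0.64, and it had no value at day 8, so no change over time could be tested.

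Pglym87 had values on all day 10 arrays and on 3 at day 14. It is the testis copy of phosphoglycerate mutase, an enzyme of glycolysis, and Pglym78 is the copy in general use. At day 10 the log2 ratio was -0.10, 0.19, 0.71 and 0.66 in replicates 1 to 4, and at day 14 it was -0.11, -0.52 and -0.38 in replicates 1, 2 and 3. Replicates 3 and 4 of day 10 were high, replicates 1 and 2 of day 10 were near 0, and all day 14 values lay below 0. The groups of arrays did not overlap, although day 10 replicate 1 and day 14 replicate 1 differed by little. How often genes at large separate in this way was not counted.

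The means of Pglym87 were 0.37 ± 0.39 at day 10 (SD, n = 4, limma adjusted p = 0.32) and -0.34 ± 0.21 at day 14 (SD, n = 3, limma adjusted p = 0.752). Day 14 minus day 10 was -0.70 (SE 0.22, 95% interval -1.19 to -0.21). The unadjusted p of that difference was 0.00975, the 31st smallest of 2385 genes tested, and its adjusted p = 0.641 in limma. Of those genes, 7.21% had an unadjusted p under 0.05, 3.56% with a negative sign, and limma called 0% after adjustment. The direction depends on the dyes: the difference was 0.24 with replicates 3 and 4 turned, 0.07 with 2 and 4, 0.35 with 2 and 3 and -0.30 with day 10 replicates 1, 2 and 3 turned. In the values as deposited, whose day 14 medians are far above 0, it was 0.79. Day 8 held no value for Pglym87.

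ocn had the widest spread of the 3 genes tested at day 14. The log2 ratio at day 10 was -0.02, -0.21, 0.25 and 0.99 in replicates 1 to 4, and at day 14 it was -1.08, 0.72 and 0.48 in replicates 1, 3 and 4. Day 14 replicate 1 was lower than all but 0.5% of the genes on its array, while replicate 3 was higher than 99.6% of the genes on its own. The twin spots of the clone differed by at most 0.15 on every array of days 10 and 14, so the spread lies between arrays and not between spots. The means were 0.25 ± 0.53 at day 10 (SD, n = 4, limma adjusted p = 0.741) and 0.04 ± 0.98 at day 14 (SD, n = 3, limma adjusted p = 0.99). The days overlapped, and their difference was -0.21 (SE 0.42, 95% interval -1.14 to 0.73). The direction rests on single arrays. The day 10 mean was 0.00 without replicate 4. The day 14 mean was 0.60 without replicate 1, -0.30 without replicate 3 and -0.18 without replicate 4, and the difference was 0.04 without day 10 replicate 4 and 0.35 without day 14 replicate 1. The day 8 sample read -0.15.

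**Figure D2:**
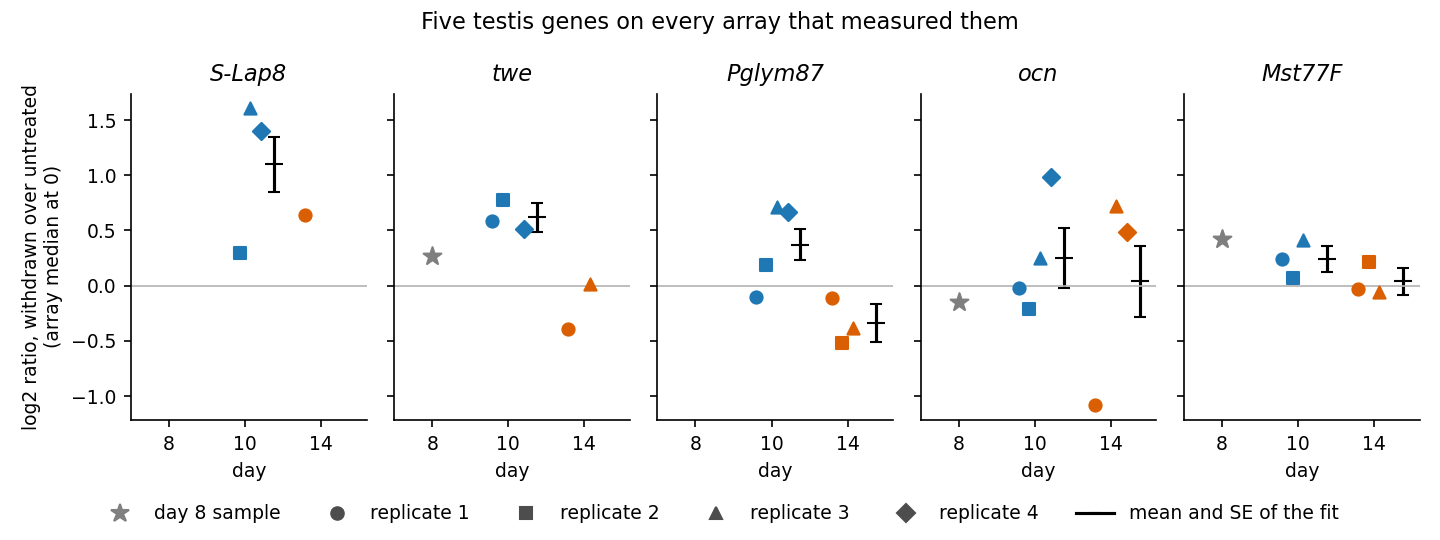
Log2 ratio of withdrawn over untreated heads (y axis, array median at 0) by day (x axis) for the 5 genes, with 1 symbol per array, a star for the day 8 sample and a black bar for the fitted mean and its SE where a gene was tested. twe lies between 0.51 and 0.78 on 3 day 10 arrays, S-Lap8 spreads over 0.30 to 1.61, and ocn spreads over -1.08 to 0.72 at day 14.

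Across the 5 genes, 14 of 17 array values lay above 0 at day 10, with a median of 0.42, and 5 of 12 at day 14, with a median of -0.04. At day 10 all 5 means lay above 0, against 53.1% of the 4661 genes tested. The 5 genes were chosen with earlier results of these data known, so shares of them beside all genes are a description only. By limma 0 of the 5 were called, against 0% of all genes, and 3 of them, twe, S-Lap8 and Pglym87, had an unadjusted p under 0.05 with a positive sign, against 7.55% of all genes (13.2% in either direction). One-class SAM, the method the series text names, also called 0 of the 5, with q = 0.173 for twe and q = 0.175 for S-Lap8, and called 0.0429% of genes. Under 4 other dye patterns tried, the day 10 mean lay below 0 in 4 of 4 for S-Lap8 and Pglym87, in 3 of 4 for Mst77F and in 2 of 4 for twe and ocn. At day 14, 0 of 3 tested members were called by limma or by SAM and 0 had an unadjusted p under 0.05, against 0% and 6.64% of 3010 genes (4.25% with a positive sign). The differences from day 10 to day 14 were below 0 for all 3 members tested at both days, where 48.6% of genes lay above 0, and Pglym87 was the 1 with an unadjusted p under 0.05. At day 8 no member had 3 columns, so none was tested. Day 8 is 1 sample, and the limma calls there, 3.66% of 519 genes, take their spread from days 10 and 14 and are read no further.

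The day 10 values of S-Lap8, Pglym87 and ocn were high on the arrays where the spots numbered next to them were high. For each member spot the median of the spots within 24 numbers on either side was taken, without the gene's own spots. Beside S-Lap8 these neighbours stood at 0.03, 0.66 and 0.60 in day 10 replicates 2, 3 and 4, where S-Lap8 itself had 0.30, 1.61 and 1.40. Beside Pglym87 they stood at 0.06, -0.15, 0.56 and 0.44 in replicates 1 to 4, and beside ocn at -0.12, -0.28, 0.36 and 0.80. The neighbours of both genes were therefore high on replicates 3 and 4, the arrays where the genes were high. twe had neighbours at 0.16, 0.34 and 0.14 on its 3 arrays, in the same order as its own 0.58, 0.78 and 0.51. It thus also moved with its neighbours, while it stood 0.42, 0.44 and 0.37 above them. Mst77F did not follow this, with neighbours at 0.11, 0.13 and -0.13 in replicates 1, 2 and 3, lowest on the array where Mst77F itself was highest.

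Over the 17 day 10 values the Pearson r with the neighbours was 0.83, and over the 12 day 14 values it was 0.60. These points share arrays and genes, so the r is a description only. Genes in general followed their neighbours too, with an r across genes of 0.53 to 0.58 on the day 10 arrays and 0.16 to 0.38 on the day 14 arrays. With each neighbour median subtracted, which was added once the data had been seen, the day 10 means were 0.67 for S-Lap8, 0.41 for twe, 0.14 for Pglym87, 0.06 for ocn and 0.21 for Mst77F. The 5 means kept their sign, and limma called 0 of 5. Among the 17 single values, 14 lay above 0 before the subtraction and 14 after it, and 4 of the 17, 3 of ocn and 1 of Mst77F, had another sign after it. Day 14 minus day 10 of Pglym87 was then -0.53. Whether spots with close numbers share a place on the slide, a plate of clones or biology was not tested.

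**Figure D3:**
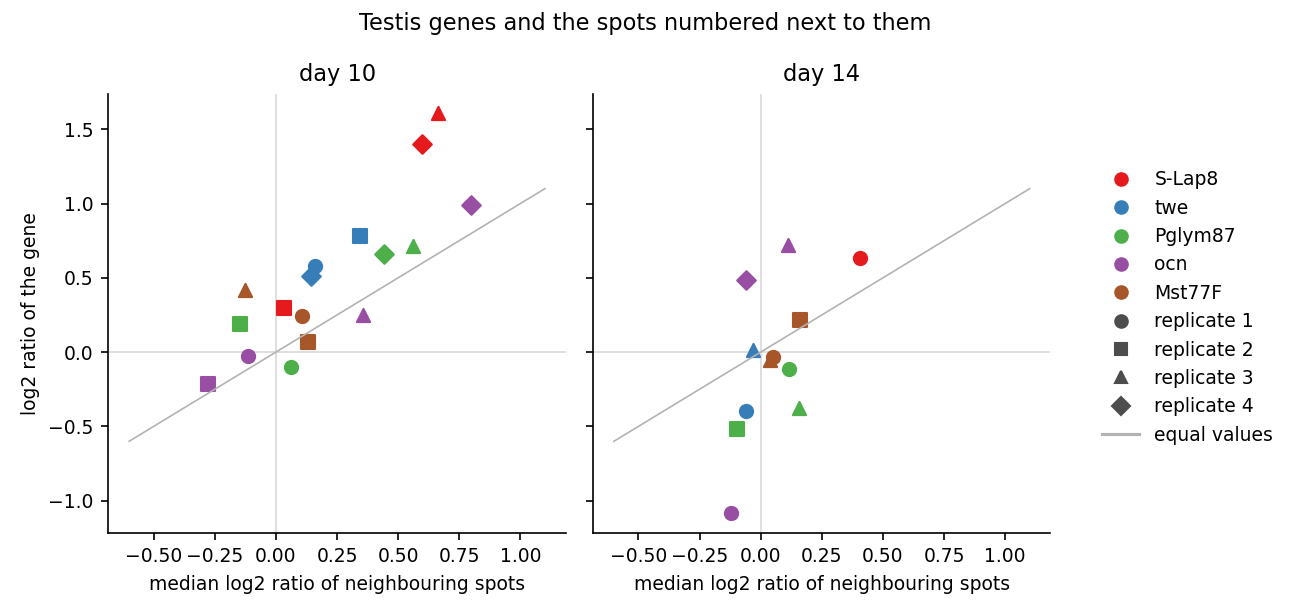
Log2 ratio of each of the 5 genes (y axis) against the median log2 ratio of the spots numbered next to it (x axis) on each array of days 10 and 14, with colours for genes, symbols for replicates and a line of equal values. At day 10, 14 of 17 values lie above 0 and the 2 measures move together (r = 0.83), and at day 14 the ocn values at -1.08 and 0.72 lie far from their neighbours.

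At day 10 the related genes that work outside the testis had means nearer to 0 than Pglym87 and S-Lap8. Pglym78 had 0.04, 0.19, 0.16 and -0.01 in day 10 replicates 1 to 4 (mean 0.10 ± 0.10, SD, n = 4, limma adjusted p = 0.733), where Pglym87 ran from -0.10 to 0.71. The neighbouring spots of Pglym78 lay between -0.09 and 0.02 on those arrays, lower than those of Pglym87 on replicates 3 and 4. grsm (granny smith), a leucyl aminopeptidase gene of the same superfamily as S-Lap8, had 0.11, 0.09, -0.02 and 0.34 (mean 0.13 ± 0.15, SD, n = 4, limma adjusted p = 0.627). In the day 8 sample, where 1 column held it, grsm read 0.39. No test of Pglym87 against Pglym78 or of S-Lap8 against grsm was made, since the spots of different genes differ in place and in clone. A cDNA spot can also bind RNA of a close relative, so the copies may not be fully separate, which was not tested.

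Other sperm aminopeptidase genes had few values. S-Lap7 stood at 0.62 in day 10 replicate 3 and at -0.50 and 0.02 in day 14 replicates 1 and 3. S-Lap5 was measured at day 14 alone, at 0.58 and -0.19 in replicates 1 and 3. Neither had enough arrays for a test, and their values have both signs. The janus genes janA and janB, which lie next to ocn in the genome, and stg, the Cdc25 gene of mitosis, carry no spot named here.

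Of the wider testis list, 23 genes besides the 5 were tested at day 10, and 15 of them lay above 0, with a median of 0.18, against 53.1% of all genes and a median of 0.01. By limma 0 were called, and 4 had an unadjusted p under 0.05, all higher, against 7.55% of all genes. With an array left out limma called some: soti (adjusted p = 0.0286) and scpr-B (adjusted p = 0.0435) without replicate 1, and PpN58A (adjusted p = 0.0403) without replicate 2. These settings called 80 and 14 of 4661 genes. Each of the named genes then rested on replicates 3 and 4 alone, under the 3 arrays asked for at the start. scpr-B is named after its values were seen. With dyes turned, the count above 0 was 8, 7, 15 or 10 of 23. The highest was soti, which encodes an inhibitor of a ubiquitin ligase in spermatids, at 0.12, 1.90 and 1.03 in replicates 1, 3 and 4 (mean 1.02 ± 0.89, SD, n = 3, limma adjusted p = 0.219). PpN58A, a testis phosphatase gene, had -0.17, 1.03 and 1.16 in replicates 2, 3 and 4, beside neighbours at -0.04, 0.72 and 0.70, and its spots differed by 1.65 in replicate 4. Both genes were high on replicates 3 and 4, like S-Lap8 and Pglym87. Hsp60C, a mitochondrial chaperonin gene needed in spermatogenesis, had 0.80, 0.26 and 0.78 in replicates 1, 2 and 3 (mean 0.61 ± 0.31, SD, n = 3, limma adjusted p = 0.166). Its 2 values in the day 8 columns stood at -0.57 and -0.59, which are 1 sample whose spots disagreed, 1 at 0.18 and the other at -1.33 in the first column. In day 10 replicate 2 its spots spanned 1.16, with 1 pair at 0.80 and 0.71 and the other at -0.14 and -0.35. Replicates 1 and 3 of day 10 rest on the first pair alone.

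The lowest day 10 means of the list were those of tomboy20, a testis form of a mitochondrial import receptor, at -0.26, Taf12L, which encodes a testis subunit of TFIID, at -0.18, and ATPsynGL, a relative of the ATP synthase gamma subunit, at -0.17. Their adjusted p in limma were 0.57, 0.591 and 0.686, so none was called, and each 95% interval included 0.

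At day 14, 12 genes of the list besides the 5 were tested and 12 lay above 0, with a median of 0.20, against 52.1% of all genes and a median of 0.01. The count above 0 was 10 of 12 under each of 3 other dye patterns and without replicate 1, and 16 of 23 with 2 of 4 columns asked for. By limma 0 were called, and 2 had an unadjusted p under 0.05, both higher, against 4.25% of all genes. p-cup, a gene transcribed after meiosis in spermatids, was highest at 0.61, 2.19 and 0.38 in replicates 1, 2 and 3 (mean 1.06 ± 0.99, SD, n = 3, limma adjusted p = 0.642), so 1 array carries much of its mean, and its 2 spots differed there by 3.64. boly, another gene with late spermatid transcripts, had 0.26, 0.36 and 0.31 (mean 0.31 ± 0.05, SD, n = 3, limma adjusted p = 0.728), although its spots differed by 0.356 to 1.14 within an array. mil, which encodes a nucleosome assembly protein of spermatids, had a mean of 0.29, and eIF4E3, vis and Rpt4R had the lowest, at 0.06, 0.06 and 0.10. Pglym87 at -0.34, and ocn and Mst77F at 0.04 each, had lower means than these 12 genes, a difference that was not tested.

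**Figure D4:**
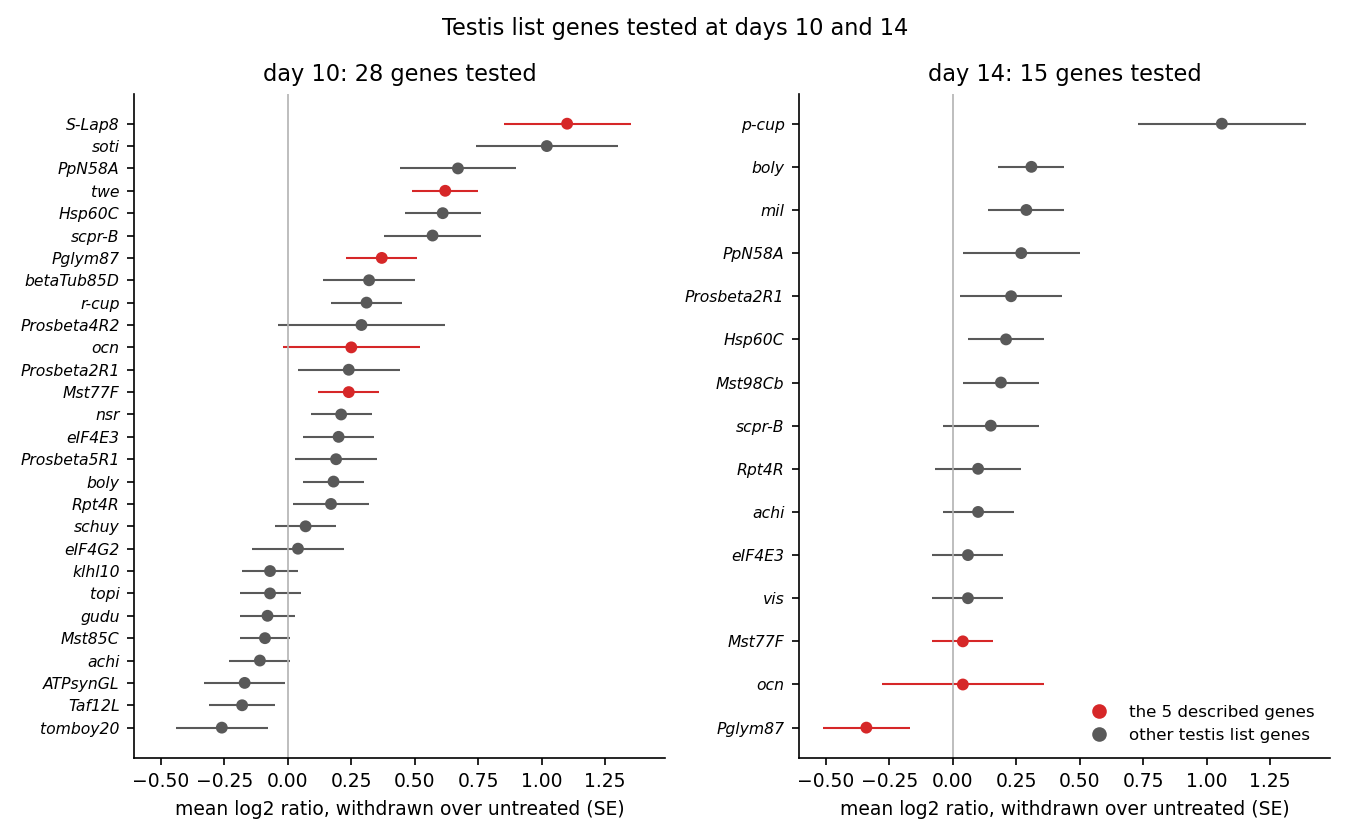
Mean log2 ratio (x axis, bars are SE of the fit) of the testis list genes tested at day 10 (28 genes) and day 14 (15 genes), sorted by mean, with the 5 described genes in red. At day 10, 20 of 28 lie above 0 with S-Lap8 at 1.1 on top, and at day 14, 14 of 15 lie above 0 with Pglym87 at -0.34 alone below.

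The medians of the testis list by array were uneven. Over the list genes besides the 5 they were 0.04, -0.07, 0.58 and 0.06 in day 10 replicates 1 to 4, on 23 to 33 genes, and 0.30, 0.01 and 0.14 in day 14 replicates 1 to 3, on 13 to 38 genes. Day 10 replicate 3 and day 14 replicate 1 stood highest, and these were the arrays on which most list genes had a value. They also measured the most named genes of their days, 5450 and 5753, so the count of list genes is not particular to the list. Day 14 replicate 4 measured 1 such gene. Day 10 replicate 3 has no value for twe, and day 14 replicate 1 is where ocn was lowest.

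Markers of other tissues were set beside these counts. At day 10 the fat body list had 14 of 19 genes above 0 (median 0.19), accessory gland genes 1 of 2 (median -0.02), female germ line genes 4 of 8 (median 0.00), photoreceptor genes 6 of 11 (median 0.06) and neuron genes 5 of 11 (median -0.11). At day 14 the fat body list had 6 of 11 above 0 (median 0.03), accessory gland genes 1 of 1 (0.20), female germ line genes 3 of 8 (median -0.06), photoreceptor genes 8 of 8 (median 0.10) and neuron genes 7 of 9 (median 0.12). No gene of these lists was called by limma on either day. By array the accessory gland genes were highest where the testis list was, with 4 of 5 above 0 in day 10 replicate 3 (median 0.42) and 3 of 4 in day 14 replicate 1 (median 0.34). The fat body list was thus as far above 0 at day 10 as the testis list, and the photoreceptor list had all its genes above 0 at day 14, as the testis list besides the 5 did. The part of other tissues in the testis values was not tested.

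Pglym87 and ocn were the members with values on at least 7 of the 8 arrays of days 10 and 14, so likeness of pattern was taken for them alone. Across 1526 genes with the 7 arrays, the patterns closest to Pglym87 were those of Obp59a, an odorant-binding protein gene (Pearson r = 0.964), and EndoG, a mitochondrial nuclease gene (r = 0.959). For ocn, across 900 genes, they were Taldo, a transaldolase gene (r = 0.981), and PCB, the pyruvate carboxylase gene (r = 0.963). Each r is the highest of many over 7 arrays that all genes share, and is given as a description.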

How the data were processed

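The deposited values are log2 ratios, 1 per spot and array, for 27648 spots on 12 arrays. Per the labels the authors normalized by ratio, and per the series text spots were quantified in GenePix Pro 6.0, normalized in Acuity 4.0 and filtered (under 3% saturated pixels, R2 of at least 0.6, signal to noise of at least 3). The base of the logarithm was assumed to be 2.

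Symbols came from the platform table, updated by gene number for 14894 of 15116 spots with 1 gene in a RefSeq table (fly assembly Release 6). Array medians as deposited ran from -0.309 to 1.588 and were set to 0, and spots of a gene were averaged. The fit used limma 3.58.1 in R 4.3.3 (lmFit, eBayes, a mean per day, 5291 genes, Benjamini-Hochberg over all genes tested). It was also run on simulated data with independent arrays, which leave out the correlation between day 10 arrays. One-class SAM was rewritten with 16 sign changes and may differ from SAM 2.21.

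Alternatives changed the centring, spot averaging, number of columns, dye swaps, fit and arrays left out. Per the labels, the arrays of days 10 and 14 are biological replicates. The 5 genes and the lists were chosen with earlier results of these data known. Genes are named by rule: the 5, their sister genes, the 3 highest and 3 lowest testis list genes a day, and the 2 most similar patterns. No sequence is shown. The number of arrays limits the precision.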

Additional observations from a re-analysis of the deposited data

How the results depend on the processing

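Of 191 values of the 5 genes under alternatives, 150 kept their sign and 7 passed the threshold. The count called at day 10 ran from 0 to 1 with 1 array left out (S-Lap8, without replicate 2, on replicates 3 and 4 alone). Over all genes limma called 0 at day 10, but 80 without replicate 1, 14 without replicate 2, 1 without replicate 4, 3 in all 4 columns and 5 with the replicate block. At day 14 and between the days 0 members were called under the alternatives run, except in the values as deposited, with 3 and 3, where limma called 3001 of 3010 genes at day 14. That setting gave 0.90, 0.94 and 1.28 for Pglym87, ocn and Mst77F at day 14 and differences of 0.79, 0.94 and 1.27. No member was called at day 8 in any column taken alone that held one.

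Turned signs reversed directions at day 10 as follows. With replicates 1, 2 and 3 turned, S-Lap8 stood at -0.17, twe at -0.28, Pglym87 at -0.03 and Mst77F at -0.24. With 3 and 4 turned, S-Lap8 stood at -0.90, Pglym87 at -0.32, ocn at -0.37 and Mst77F at -0.03. With 2 and 4 turned, S-Lap8 stood at -0.03, twe at -0.24, Pglym87 at -0.06 and ocn at -0.14. With 2 and 3 turned, S-Lap8 stood at -0.17, Pglym87 at -0.08 and Mst77F at -0.08. At day 14, ocn stood at -0.76 with 3 and 4 turned, at -0.28 with 2 and 4 and at -0.44 with 2 and 3. Pglym87 stood at 0.01 with 2 and 4 and at 0.26 with 2 and 3, and Mst77F at -0.10 and -0.06. The difference of Pglym87 was 0.24, 0.07 and 0.35 in these 3 settings, and that of Mst77F was 0.29 with day 10 replicates 1, 2 and 3 turned, 0.11 with 3 and 4 and 0.02 with 2 and 3.

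With 1 array left out, ocn at day 14 ran from -0.30 to 0.60, its difference from -0.55 to 0.35, and Mst77F at day 14 from -0.04 to 0.09. With neighbouring spots at 0, Mst77F at day 14 was -0.04 and the ocn difference 0.01. With runs of consecutive spots at 0, Mst77F at day 14 was -0.03. In the fit with the replicate block ocn at day 14 was -0.11 and no member was called. Taken as each gene's deviation from its day mean, same-numbered arrays of days 10 and 14 correlated at 0.017 to 0.342. Differently numbered arrays ran from -0.415 to 0.421, so these r do not single out the same-numbered arrays as pairs. Of the list besides the 5, the genes above 0 at day 10 numbered 15 in the starting setting, 8 as deposited, 6 of 13 in all 4 columns, 8 with replicates 1, 2 and 3 turned, 7 with 3 and 4 turned, 10 with 2 and 3 turned and 8 of 15 with the block. At day 14, against 12 of 12, they numbered 1 of 1 in all 4 columns and 6 of 6 with the block, where fewer genes were tested, 16 of 23 with 2 of 4 columns, 10 of 12 with each of 3 dye patterns turned or without replicate 1, and 10 of 11 with neighbouring spots at 0. The cause of the other changes was not tested, beyond what the turned signs themselves fix. Without intensities, the effect of dim spots was not tested.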
